A study of Mus musculus with 17 samples.

Results

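The selenoprotein genes described here in mouse skeletal muscle were 10: the glutathione peroxidase genes Gpx1, Gpx3 and Gpx4, the thioredoxin reductase genes Txnrd1 and Txnrd2, the methionine sulfoxide reductase gene Msrb1, and Selenow, Selenop, Selenom and Selenon. They were taken by symbol from a table of 45777 genes, in which each of the 10 symbols had 1 row, and all 10 passed the filter on low counts that left 16731 genes for testing. The table holds mRNA sequencing of the gastrocnemius, the large calf muscle, of 17 male C57BL/6J mice, 1 library per mouse. The 4 ALL mice were fed AIN-93G in which 3% allulose, an epimer of fructose, replaced cellulose for 12 weeks, and were 48 weeks old when they entered and 61 weeks old when killed. The 6 Middle-aged mice had these ages and ate AIN-93G without allulose. The 7 Mature mice ate that same control diet and were 8 weeks old on entry and 21 weeks old when killed. The labels give the ages as 12 months and 8 weeks and the strain as C56BL/6J.

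Selenoproteins contain selenocysteine, a form of cysteine in which selenium takes the place of sulfur. Its codon is UGA, which ends translation in other transcripts and is read as selenocysteine where a hairpin in the untranslated end of the transcript recruits a dedicated binding protein and elongation factor. In muscle, selenium deficiency causes a degenerative myopathy, and inherited loss of selenoprotein N causes a congenital muscle disease in humans.

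The codon that defines the family is shown first, because it is the feature that all 10 genes share. The GENCODE M21 annotation (GRCm38, the same build as mm10) marks a selenocysteine codon in 24 of 22028 protein-coding genes, or 0.109%. These were the 10 genes described here and the 14 other mouse selenoprotein genes followed below. Of the 10, 9 had 1 such codon and Selenop had 10. The sequences below run 5′ to 3′ on the coding strand of the principal transcript, from 12 bases before to 12 bases after the first selenocysteine codon or to the stop codon where that came sooner, with the codon in capitals.
Gpx1: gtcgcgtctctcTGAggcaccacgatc
Gpx3: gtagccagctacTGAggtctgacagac
Gpx4: gtggcctcgcaaTGAggcaaaactgac
Txnrd1: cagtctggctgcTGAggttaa
Txnrd2: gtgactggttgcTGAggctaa
Msrb1: caatcaagattcTGAatatttagcagc
Selenow: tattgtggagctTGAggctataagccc
Selenop: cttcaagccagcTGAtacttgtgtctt
Selenom: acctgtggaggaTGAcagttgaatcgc
Selenon: gaccagtcctgcTGAggttccgggcgg

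The base after the codon was G in 7 of the 10 genes, namely in all 3 glutathione peroxidases, both thioredoxin reductases, Selenow and Selenon, and in 12 of all 24 annotated genes. In both thioredoxin reductases the codon was the last but 1 before the stop, codon 498 of 499 in Txnrd1 and codon 526 of 527 in Txnrd2. In the glutathione peroxidases it lay nearer the start, at codon 47 of 201 in Gpx1, 73 of 226 in Gpx3 and 73 of 197 in Gpx4. The codon of Gpx3 lies in exon 2 of 5 (chr11:54907256-54907258, plus strand), that of Gpx4 in exon 3 of 7 (chr10:80054737-80054739, plus strand) and that of Msrb1 in exon 3 of 4 (chr17:24740158-24740160, plus strand). By the RefSeq table of the same build the genes span chr11:54902854-54910387 for Gpx3, chr10:80047166-80056439 for Gpx4 and chr17:24736593-24742778 for Msrb1.

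Libraries held 64018538 to 70544150 counts in ALL, 61832304 to 72640511 in Middle-aged and 49774656 to 63970155 in Mature. The 37 genes of the mitochondrial genome took 16.7% to 21.8% of the counts in ALL, 15.2% to 23.5% in Middle-aged and 15.6% to 22.4% in Mature, and 7 mice had a share of 20% or more: ALL 1, Middle-aged 1, 3 and 4, and Mature 1, 2 and 3. Age differences are given below for both sets of mice where a call or the direction of a difference was not the same in the sets, Gpx1 and Txnrd2 being positive in both and Txnrd1 negative in both, with none called. All 8 muscle fibre markers were present in every group. Of 5 hepatocyte genes, Ttr, Fgb and Serpina1a had 0 counts in every library. With Alb and Apoa1, the 5 summed to at most 0.059 CPM in ALL, 0.42 CPM in Middle-aged and 0.47 CPM in Mature mice. Only 1 of the 5 was tested, and it was not called. Its logFC was −3.15 in ALL against Middle-aged and −3.41 in ALL against Mature mice, both at an unadjusted p under 0.05 in edgeR's test. The labels name adipose tissue and liver in the extraction text, and the gastrocnemius in the tissue field. Some markers of other cells of the muscle fell with age: 4 of 6 for endothelium (summed 147 to 168 CPM in ALL, 129 to 172 CPM in Middle-aged and 189.2 to 256 CPM in Mature mice), 5 of 6 for smooth muscle and pericytes (284 to 313, 243 to 315 and 336 to 399 CPM) and 6 of 6 for Schwann cells (45.2 to 106, 34.3 to 84.3 and 69.9 to 390.4 CPM), with 3 of 6 fibroblast and 2 of 5 tendon markers. The fibroblast markers Dcn and Lum (logFC 0.15 and 0.24) and the tendon marker Scx (0.47, edgeR FDR = 0.089) had positive values, as had all 6 macrophage markers (median logFC 0.35, 0 of 6 called, summed 9.03 to 23.1 CPM in ALL, 18.05 to 44.1 CPM in Middle-aged and 10.9 to 31.8 CPM in Mature mice). Over all genes tested, 5.54% were called lower and 4.75% higher with age. None of these markers was at 0 in a whole group, and their part in the results on age was not tested. Values are given as CPM (counts scaled to a common library size after TMM normalization) and differences as log2 fold changes (logFC) with standard errors from edgeR's quasi-likelihood test, which was fitted over all genes and adjusted by Benjamini-Hochberg (FDR, called under 0.05). Intervals are 95% intervals of the logFC.

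Levels are compared between genes only in the deposited TPM, which are scaled by transcript length. Selenow, a small thioredoxin-like protein that is abundant in muscle, was the highest in every mouse and made up 57.7% to 66.1% of the summed TPM of the 10 genes. Its mean was 1706.7 ± 150 TPM in ALL, 1674.7 ± 191 TPM in Middle-aged and 1597.5 ± 208 TPM in Mature mice (SD, n = 4, 6 and 7). Gpx4, which reduces lipid hydroperoxides within membranes, was next, with 504 ± 43.6 TPM in ALL, 531 ± 71.5 TPM in Middle-aged and 410.5 ± 21.3 TPM in Mature mice. Neither gene overlapped its neighbours in this order in any group. Gpx3, the peroxidase that cells secrete into plasma, followed with 222 ± 36.4 TPM in ALL, 249 ± 56.9 TPM in Middle-aged and 151 ± 21.9 TPM in Mature mice.

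The place of Gpx3 relative to Msrb1 was not the same in the 3 groups. Msrb1, which reduces oxidized methionine residues, had 143 ± 5.34 TPM in ALL, 121 ± 8.86 TPM in Middle-aged and 144 ± 8.76 TPM in Mature mice. Gpx3 was above Msrb1 in 4 of 4 ALL and 6 of 6 Middle-aged mice and in 3 of 7 Mature mice, where the ranges of the genes overlapped. Msrb1 in turn was above Selenop in 4 of 4 ALL and 7 of 7 Mature mice and in 4 of 6 Middle-aged mice. The lower end of the order was the same in all groups: Gpx1 (66.6, 67.5 and 64.2 TPM in ALL, Middle-aged and Mature mice), Txnrd1 (43.6, 43.7 and 48.9 TPM), Txnrd2 (13.5, 13.1 and 11.9 TPM), Selenom (9.73, 10.03 and 8.03 TPM) and Selenon (1.62, 1.91 and 1.89 TPM). Each of these was above the next in every mouse, although the ranges of Txnrd2 and Selenom overlapped in ALL and Middle-aged mice and those of Gpx1 and Txnrd1 in Mature mice.

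**Figure D1:**
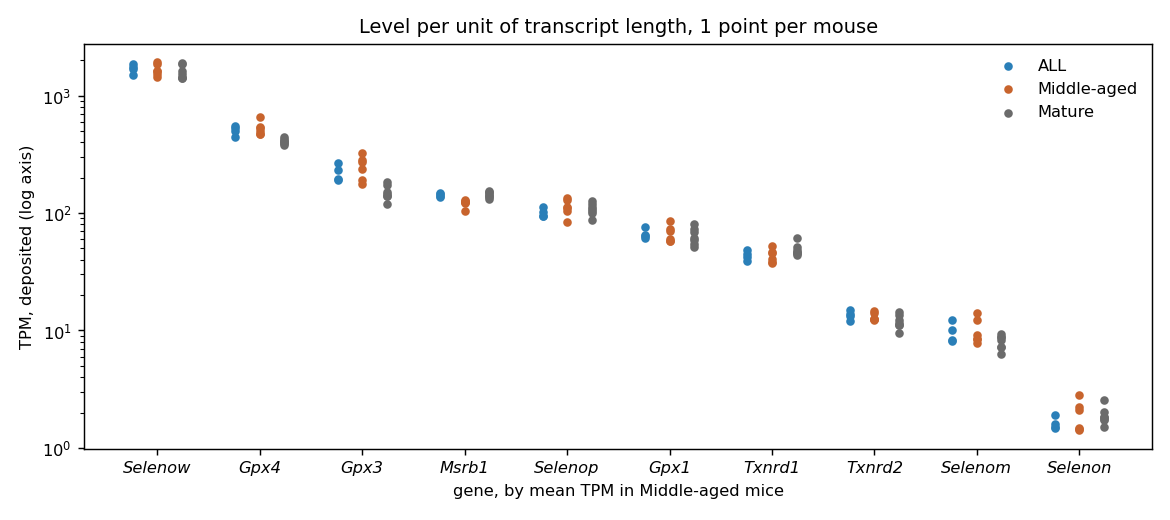
Deposited TPM (log axis) of the 10 genes, ordered by their mean in Middle-aged mice, with 1 point per mouse and the groups ALL (blue), Middle-aged (orange) and Mature (grey) from left to right. The genes span from Selenow at 1408.6 to 1923.8 TPM to Selenon at 1.41 to 2.79 TPM.

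With age, Gpx3 and Gpx4 rose and Msrb1 fell, and the other 7 genes did not pass the test. Of the 10 genes, 2 were higher and 1 was lower in the Middle-aged than in the Mature group, against 4.75% of all 16731 genes called higher and 5.54% called lower. The median logFC of the 10 was 0.07, compared with 0.01 over all genes tested. Both genes that rose encode peroxidases that use glutathione, as does Gpx1, which was not called (logFC 0.07, edgeR FDR = 0.72). The 1 that fell encodes an enzyme that repairs oxidized protein, and its call was lost in 15 of 29 alternative fits.

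Gpx3 had the largest difference of the 10. It had 175 to 277 CPM in Middle-aged mice (median 223), against 108 to 169 CPM in Mature mice (median 123). The 6 Middle-aged mice were all above the 7 Mature mice, which was so for 1.83% of all genes tested. The mean was 219.7 ± 35.8 CPM in Middle-aged and 134 ± 23.3 CPM in Mature mice (SD), and the logFC was 0.71 (SE 0.12, edgeR FDR = 0.00089), or 1.63-fold. In the deposited TPM the groups overlapped, at 178 to 327 TPM in Middle-aged and 120.3 to 184 TPM in Mature mice. Because the tissue was measured in bulk, fewer cells of a type and less RNA per cell cannot be told apart for this or any other gene described here.

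Gpx3 was also compared within mice of lower and of higher mitochondrial share. Among mice with a share under 20%, it had 227 to 277 CPM in 3 Middle-aged mice, against 108 to 135 CPM in 4 Mature mice, with a logFC of 1.003 (SE 0.12, edgeR FDR = 0.0036). Among mice with a share of 20% or more, it had 175 to 219 CPM in 3 Middle-aged mice, against 121 to 169 CPM in 3 Mature mice. The logFC there was 0.35 (SE 0.13, edgeR FDR = 0.15), which did not pass the threshold. The Middle-aged mice were all above the Mature mice in both sets, which was so for 7.73% of all genes under 20% and for 15.3% at 20% or more, and whether the 2 differences are unequal was not tested. With the mitochondrial share as a covariate over all mice the logFC was 0.71 (edgeR FDR = 0.000804).

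Kidney and adipose tissue also express Gpx3, and their markers were measured in the same libraries. The 4 kidney tubule markers had 0 counts in every ALL and every Mature library, and their summed level reached 0.031 CPM in Middle-aged mice, in which Umod and Kap were at 0. The 6 adipocyte markers summed to 17.8 to 36.9 CPM in ALL, 30.6 to 118 CPM in Middle-aged and 36.5 to 118 CPM in Mature mice, with 0 of 6 called between Middle-aged and Mature, and none was at 0 in a whole group. Within groups, the correlation of Gpx3 with the summed adipocyte markers was −0.18 over 17 mice, which share library and depth. Lipe made up much of that sum, with a median of 23.7 CPM in ALL, 22.8 CPM in Middle-aged and 28.3 CPM in Mature mice. The medians of the sum were 31.1, 39.2 and 64.4 CPM. The correlation does not separate Lipe from the other adipocyte markers, and the part of either tissue in the level of Gpx3 was not tested.

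Gpx4 had a smaller difference with less spread. It had 239.8 to 289 CPM in Middle-aged mice (median 248), against 171 to 214 CPM in Mature mice (median 202). Every Middle-aged mouse was above every Mature mouse, in CPM as in TPM, which in CPM was so for 1.83% of all genes tested. The mean was 253 ± 18.2 CPM in Middle-aged and 196 ± 14.7 CPM in Mature mice (SD), and the logFC was 0.37 (SE 0.06, edgeR FDR = 0.00091), or 1.29-fold. Among mice with a mitochondrial share under 20% the logFC was 0.40 (SE 0.10, edgeR FDR = 0.055), which did not pass, and among those with 20% or more it was 0.32 (SE 0.06, edgeR FDR = 0.021).

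Gpx4 shares sequence with a processed copy, and reads may have been split between them. The pseudogene Gpx4-ps2 held 30820 counts over all mice, against 252235 for Gpx4 itself, and a further copy, Gpx4-ps1, held 42. Gpx4-ps2 took 9.94% to 11.9% of the counts of the pair, and its own logFC was 0.37 (SE 0.07, edgeR FDR = 0.0032) in Middle-aged against Mature mice. With the counts of both copies added to Gpx4, the logFC was 0.36 (SE 0.06, edgeR FDR = 0.0013).

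Msrb1 moved the other way, and its call depended on single mice. It had 57.1 to 80.3 CPM in Middle-aged mice (median 73.3), against 76.1 to 90.2 CPM in Mature mice (median 85.2). In CPM, 4 of the 6 Middle-aged mice were below every Mature mouse. In TPM all 6 were, at 104 to 129 TPM in Middle-aged and 131 to 156 TPM in Mature mice, which was so for 1.52% of all genes. The logFC was −0.23 (SE 0.07, edgeR FDR = 0.047), or 0.85-fold. The call was lost in 12 of the 17 fits that left out 1 mouse (FDR up to 0.088), namely those without Mature 1, 2, 3, 4, 5 or 7, Middle-aged 2, 4, 5 or 6, or ALL 1 or 3. Among mice with a mitochondrial share under 20% the logFC was −0.41 (SE 0.09, edgeR FDR = 0.039), and among those with 20% or more it was −0.08 (SE 0.06, edgeR FDR = 0.52). A replicate block gave −0.22 (edgeR FDR = 0.073).

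**Figure D2:**
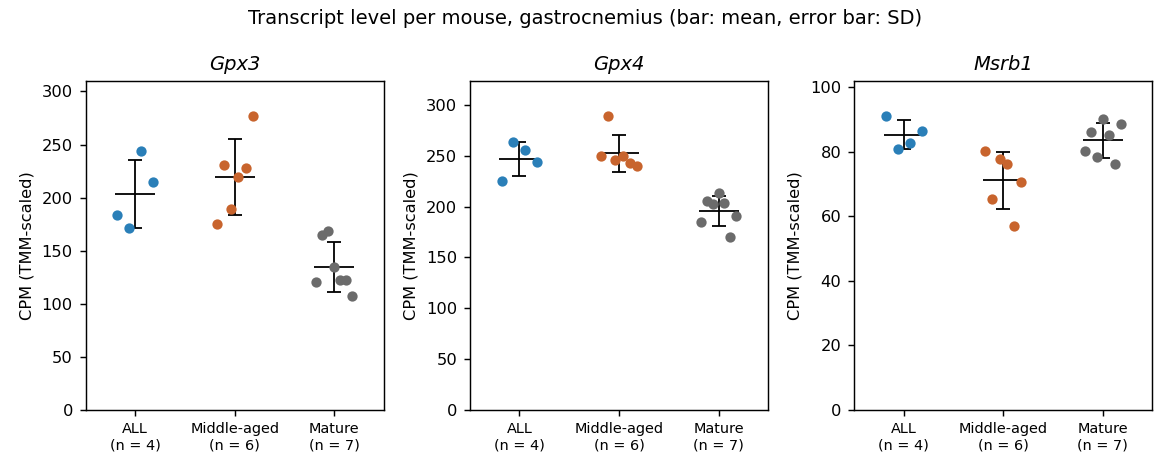
CPM of Gpx3, Gpx4 and Msrb1 in each of 4 ALL, 6 Middle-aged and 7 Mature mice (points), with the mean and SD of each group (bar and error bar). For Gpx3 and Gpx4, all Middle-aged mice lie above all Mature mice (as for 1.83% of all genes tested) and so do all ALL mice (3.2%). For Msrb1, all ALL mice lie above all Middle-aged mice (0.251%).

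The remaining peroxidase did not pass the test. Gpx1, the cytosolic glutathione peroxidase, had 36.5 to 47.98 CPM in Middle-aged mice (median 40.6), against 32.4 to 50.04 CPM in Mature mice (median 35.3), so that the Mature range held all Middle-aged mice. Its logFC was 0.07 (interval −0.13 to 0.26, edgeR FDR = 0.72).

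Neither thioredoxin reductase was called, and their values differed in direction. Txnrd1, the cytosolic enzyme, had 82.5 to 98.2 CPM in Middle-aged mice (median 84.2), against 85.2 to 114 CPM in Mature mice (median 99.1), with a logFC of −0.17 (SE 0.07, edgeR FDR = 0.16). Of the 6 Middle-aged mice, 3 were below every Mature mouse. Txnrd2, the mitochondrial enzyme, had 13.3 to 15.3 CPM in Middle-aged mice (median 14.8), against 10.4 to 16.0 CPM in Mature mice (median 12.9), with a logFC of 0.14 (SE 0.08, edgeR FDR = 0.31). Txnrd1 overlaps a transcribed neighbour on the opposite strand, and the strand setting of the counting is not given in the sources used here. Gm38560 overlaps Txnrd1 by 13276 bases and held 14433 counts over all mice, against 100895 for Txnrd1.

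Selenom was not called. Selenom, a protein of the endoplasmic reticulum, had 4.44 to 6.73 CPM in Middle-aged mice (median 4.72), against 3.34 to 4.77 CPM in Mature mice (median 4.35), with 3 of 6 Middle-aged mice above every Mature mouse. The logFC was 0.31 (SE 0.13, edgeR FDR = 0.14). It was 0.53 (SE 0.18, edgeR FDR = 0.16) among mice with a mitochondrial share under 20% and 0.03 (SE 0.12, edgeR FDR = 0.92) among those with 20% or more. Its counts were low, at 281 to 472 in Middle-aged and 167 to 311 in Mature libraries.

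Selenow, Selenop and Selenon had logFC values near 0 over all mice. Selenow had 632 to 735 CPM in Middle-aged mice (median 695), against 568 to 793 CPM in Mature mice (median 614), with a logFC of 0.07 (interval −0.10 to 0.23, edgeR FDR = 0.66). Selenop, the plasma protein that carries selenium from the liver to other tissues, had 109.9 to 145 CPM in Middle-aged mice (median 138), against 103 to 158 CPM in Mature mice (median 128), with a logFC of 0.05 (interval −0.13 to 0.23, edgeR FDR = 0.78). The Mature range held every Middle-aged mouse for both genes. Selenon, a protein of the endoplasmic reticulum that bears on calcium handling, had 3.07 to 5.15 CPM in Middle-aged mice (median 3.62), against 3.02 to 4.998 CPM in Mature mice (median 3.602). Its logFC was −0.00 (SE 0.13, edgeR FDR = 0.99) with an interval of −0.29 to 0.28, the widest of the 10.

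The value of Selenon over all mice joined logFC values of opposite sign in the mice of lower and of higher mitochondrial share. Under 20%, it had 4.05 to 5.15 CPM in 3 Middle-aged mice, against 3.02 to 3.73 CPM in 4 Mature mice, with a logFC of 0.37 (SE 0.14, edgeR FDR = 0.20). At 20% or more, it had 3.07 to 3.19 CPM in 3 Middle-aged mice, against 3.602 to 4.998 CPM in 3 Mature mice, with a logFC of −0.47 (SE 0.15, edgeR FDR = 0.096). The Middle-aged mice were all above the Mature mice in the first set, as for 7.73% of all genes, and all below them in the other, as for 14% of all genes. Neither difference passed the threshold, and the difference between the sets was not tested. The cut at 20% was made after the data were seen, and the sets may differ in more than this share. The logFC of Selenop was 0.21 (edgeR FDR = 0.33) under 20% and −0.15 (edgeR FDR = 0.46) at 20% or more, and that of Selenow was −0.02 (edgeR FDR = 0.96) and 0.18 (edgeR FDR = 0.13).

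**Figure D3:**
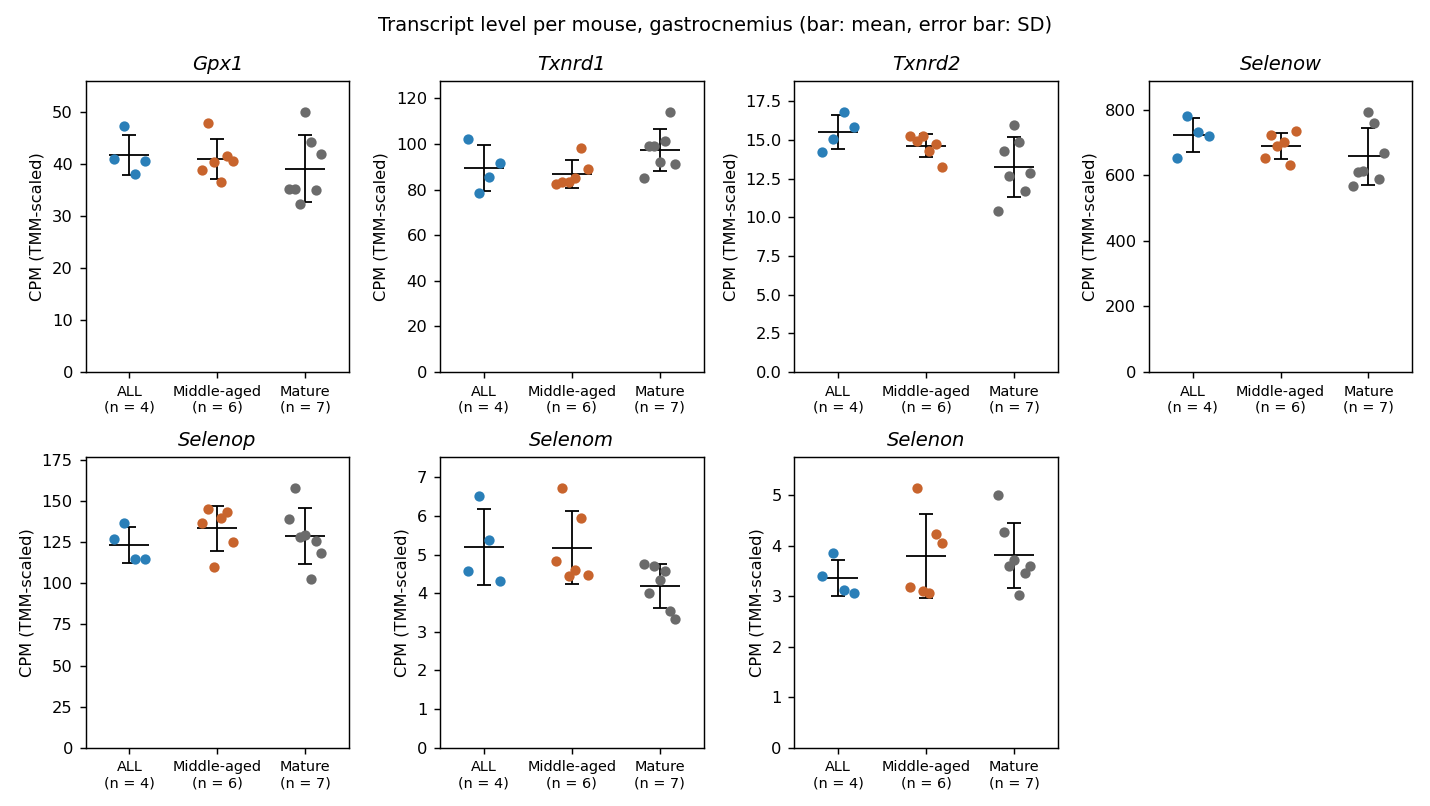
CPM of the 7 genes that were not called, in each of 4 ALL, 6 Middle-aged and 7 Mature mice (points), with the mean and SD of each group (bar and error bar). The groups overlap in every panel, and 3 Middle-aged mice lie above all Mature mice for Selenom.

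Mice fed AIN-93G with allulose in place of part of the cellulose were compared with mice of the same age fed AIN-93G. Added allulose and less cellulose cannot be told apart in this comparison. None of the 10 genes was called between ALL and Middle-aged mice, and neither was any gene of the table: 0% of the 16731 genes were higher and 0% were lower by edgeR's quasi-likelihood test, with 603 genes at an unadjusted p under 0.05. DESeq2 called 2 genes and edgeR's likelihood ratio test called 4, and none of the 10 was among them. The median logFC of the 10 was 0.02, compared with −0.0047 over all genes.

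Msrb1 was the only 1 of the 10 with an unadjusted p under 0.05 in this comparison. It had 91.0, 80.9, 82.7 and 86.5 CPM in the 4 ALL mice, against 57.1 to 80.3 CPM in Middle-aged mice (median 73.3). All ALL mice were above all Middle-aged mice, which was so for 0.251% of all genes, and the lowest ALL mouse was just above the highest Middle-aged mouse. In TPM the gap was wider, at 138 to 149 TPM in ALL and 104 to 129 TPM in Middle-aged mice, which was so for 0.137% of genes. The logFC was 0.26 (SE 0.08, interval 0.09 to 0.43), with an unadjusted p of 0.0055 in edgeR's test over all genes and an adjusted p of 0.9997 (FDR), so the difference did not pass. It was positive in all 29 alternative fits, at 0.21 to 0.38. The age and diet comparisons share the Middle-aged mice, so a low level in those 6 mice enters both: the logFC of Msrb1 was −0.23 in Middle-aged against Mature mice and 0.03 (interval −0.14 to 0.20) in ALL against Mature mice.

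For Gpx3 and Gpx4, the differences between ALL and Middle-aged mice did not pass the test. Gpx3 had 184, 172, 243 and 214 CPM in the 4 ALL mice, against 175 to 277 CPM in Middle-aged mice, with a logFC of −0.11 and an interval of −0.40 to 0.18. ALL 2 lay just below the lowest Middle-aged mouse. Gpx4 had 225, 264, 256 and 244 CPM in the 4 ALL mice, against 239.8 to 289 CPM in Middle-aged mice, with a logFC of −0.03 and an interval of −0.18 to 0.12. ALL 1 was below every Middle-aged mouse and the other 3 were within their range. Adipocyte markers had a median logFC of −2.10 in this comparison, with 0 of 6 called and 5 of 6 lower at an unadjusted p under 0.05 in edgeR's test. At that p, 2 of 6 macrophage (median −0.71) and 2 of 6 fibroblast markers (−0.32) were also lower, and 3 of 6 Schwann cell markers (0.77) were higher. Slow fibre (0.66), red blood cell (0.35), tendon (0.21), endothelial (0.14), muscle fibre (0.10) and smooth muscle and pericyte markers (0.06) had none at that p. The part of these markers in the values of Gpx3, Gpx4 and Msrb1 was not tested.

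The other 7 genes are given with the intervals of their differences. The interval for Selenow was −0.12 to 0.26, that for Gpx1 −0.20 to 0.25, that for Txnrd1 −0.13 to 0.22 and that for Txnrd2 −0.12 to 0.28. Selenow had 654, 780.3, 733 and 721 CPM in ALL mice, and Gpx1 had 41.0, 47.3, 38.2 and 40.6 CPM. Selenop had 127, 137, 115 and 115 CPM in ALL mice, within the Middle-aged range of 109.9 to 145 CPM, and its interval was −0.33 to 0.10. The intervals of Selenom (−0.30 to 0.31) and Selenon (−0.51 to 0.15) were wider, and Selenon had 197 to 272 counts per ALL library.

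Gpx3 and Gpx4 were called between ALL and Mature mice. Of the 10, 2 were higher and 0 lower in ALL than in Mature mice, against 3.32% of all genes called higher and 3.18% called lower. Gpx3 had a logFC of 0.60 (SE 0.13, edgeR FDR = 0.012) and Gpx4 of 0.34 (SE 0.07, edgeR FDR = 0.0080), and every ALL mouse was above every Mature mouse in both, as for 3.2% of all genes. Adipocyte markers had a median logFC of −2.46 between the same mice, with 1 of 6 called lower and 6 of 6 lower at an unadjusted p under 0.05. Also called lower were 5 of 6 endothelial, 5 of 6 smooth muscle and pericyte, 3 of 6 fibroblast and 1 of 6 Schwann cell markers. Of 5 tendon markers 1 was called higher and 1 lower, and 0 of 6 macrophage markers were called. The part of these markers was not tested. The call for Gpx3 was lost without ALL 3, which had the highest level of the group (logFC 0.50, edgeR FDR = 0.071). Among mice with a mitochondrial share under 20% Gpx3 had 0.78 (edgeR FDR = 0.011) and Gpx4 had 0.38 (edgeR FDR = 0.060), and with a share of 20% or more, where ALL had 1 mouse whose spread was taken from the other groups, they had 0.28 (edgeR FDR = 0.65) and 0.18 (edgeR FDR = 0.49). This comparison shares the ALL and Mature mice with the others and is no separate evidence for them. Selenom (logFC 0.31, interval 0.02 to 0.61) and Txnrd2 (0.22, interval 0.03 to 0.42) had unadjusted p values of 0.040 and 0.027 in edgeR's test over all genes, and neither passed (FDR = 0.19 and 0.15).

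**Figure D4:**
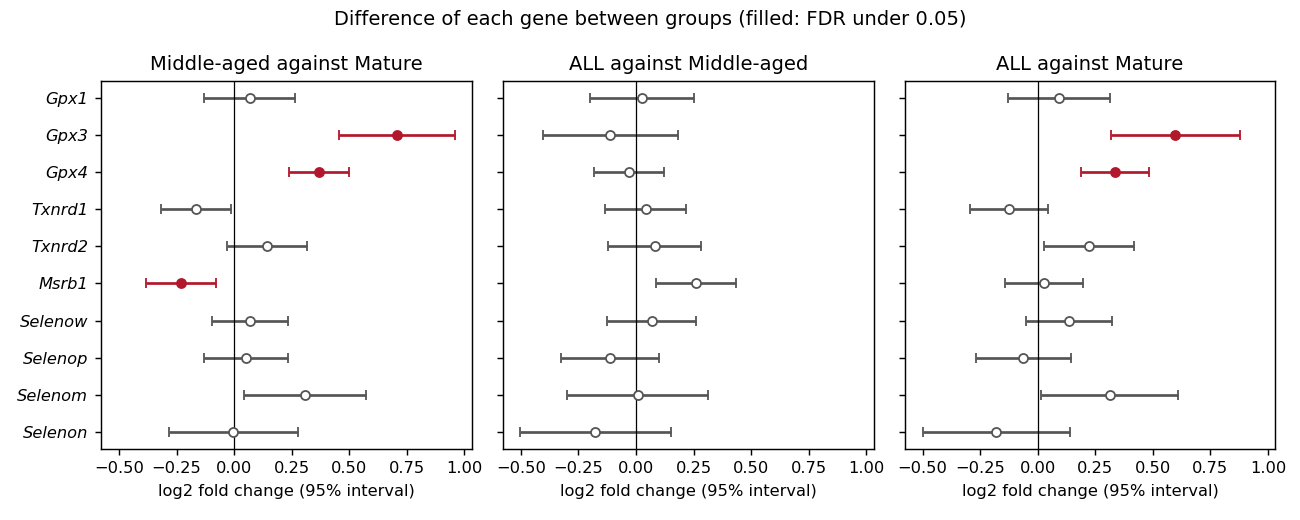
logFC of each gene with its 95% interval from edgeR's quasi-likelihood fit, in 3 panels, 1 for age and 2 for ALL mice set against the Middle-aged and the Mature group, with filled red points where the FDR was under 0.05. Gpx3 (0.71) and Gpx4 (0.37) are filled in both comparisons with Mature mice and Msrb1 (−0.23) in the first only, and no point is filled in ALL against Middle-aged.

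The 14 other selenoprotein genes were followed in the same fit. Of these, 11 were tested and 0 of 11 were called in any of the 3 comparisons at an FDR under 0.05 by edgeR, with 1 of 11 at an unadjusted p under 0.05 in Middle-aged against Mature mice. That gene was Selenof, a protein of the endoplasmic reticulum, with 70.2 to 89.4 CPM in Middle-aged mice (median 80.3), against 61.6 to 76.6 CPM in Mature mice (median 69.0), and a logFC of 0.20 (SE 0.07, edgeR FDR = 0.064). Selenot, a thioredoxin-like protein of the endoplasmic reticulum, had 156 to 189.9 CPM in Middle-aged and 151 to 176 CPM in Mature mice (logFC 0.06). The deiodinase genes, whose enzymes activate or inactivate thyroid hormone, were low: Dio2 had 28 to 81 reads in Middle-aged libraries and 13 to 91 in Mature ones, and Dio3 had 11 to 32 in Middle-aged libraries and 2 to 32 in Mature ones. Gpx2, Dio1 and Selenov did not pass the filter, and Gpx2 and Selenov had 0 counts in every library. The logFC in Middle-aged against Mature mice was 0.11 for Selenok, 0.09 for Selenoh, 0.04 for Selenos and Selenoi, −0.02 for Sephs2, −0.10 for Txnrd3 and −0.15 for Selenoo.

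Genes of selenocysteine synthesis and insertion fell with age in 2 of 11 cases and rose in 0 of 11, against 5.54% of all genes called lower and 4.75% called higher. Secisbp2l, a paralogue of the protein that binds the selenocysteine hairpin, had 21.4 to 25.2 CPM in Middle-aged mice (median 21.9), against 24.8 to 37.5 CPM in Mature mice (median 28.1), with a logFC of −0.38 (SE 0.10, edgeR FDR = 0.018). Of the 6 Middle-aged mice, 5 were below every Mature mouse. Sephs1, a homologue of selenophosphate synthetase, had 21.1 to 23.3 CPM in Middle-aged mice (median 21.8), against 22.6 to 28.2 CPM in Mature mice (median 24.4), with a logFC of −0.19 (SE 0.06, edgeR FDR = 0.041). The call for Sephs1 was lost in 14 of the 29 alternative fits, 8 of them among the 17 that left out 1 mouse. That for Secisbp2l was lost in 2 of 29, with only mice under 20% mitochondrial share (logFC −0.51, edgeR FDR = 0.095) and with only mice of 20% or more (−0.23, edgeR FDR = 0.12). Secisbp2 itself had a logFC of −0.17 (edgeR FDR = 0.17), Eefsec, the elongation factor, of −0.06 (edgeR FDR = 0.74) and Sepsecs, which forms selenocysteine on its tRNA, of 0.08 (edgeR FDR = 0.52). The median logFC of the 11 was −0.05, compared with 0.01 over all genes. None was called between ALL and Middle-aged mice. Of 3 receptors tied to selenium uptake only Lrp1 passed the filter, and it was not called (logFC −0.03, edgeR FDR = 0.93).

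Among 17 cysteine homologues and redox partners, 1 rose and 1 fell with age, near the 4.75% of all genes called higher and the 5.54% called lower. Prdx5, a peroxiredoxin of mitochondria and peroxisomes, had 95.4 to 130.3 CPM in Middle-aged mice (median 111), against 82.5 to 103 CPM in Mature mice (median 91.5), with a logFC of 0.25 (SE 0.08, edgeR FDR = 0.042). Txnip, which binds and inhibits thioredoxin, had 592 to 726 CPM in Middle-aged mice (median 672), against 803 to 1001 CPM in Mature mice (median 814), with a logFC of −0.39 (SE 0.08, edgeR FDR = 0.0024). All Middle-aged mice were below all Mature mice for Txnip, as for 2.21% of all genes. The call for Prdx5 was lost in 16 of the 29 alternative fits, 12 of them among the 17 that left out 1 mouse, and its logFC was 0.15 (edgeR FDR = 0.40) under 20% mitochondrial share and 0.30 (edgeR FDR = 0.028) at 20% or more. That for Txnip was lost in 1 of 29, with only mice under 20% mitochondrial share (logFC −0.35, edgeR FDR = 0.10, against −0.45 and FDR = 0.023 at 20% or more).

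Of 8 lipid peroxidation and ferroptosis genes tested, the genes around the process that Gpx4 opposes, 1 rose and 0 fell with age. Over all genes, 4.75% were called higher and 5.54% lower. Alox15, a lipoxygenase that oxidizes membrane lipids, had 1.24 to 1.48 CPM in Middle-aged mice (median 1.34), against 0.51 to 1.06 CPM in Mature mice (median 0.74), with a logFC of 0.80 (SE 0.15, edgeR FDR = 0.0023). Its level was low, with 80 to 105 reads in Middle-aged libraries and 33 to 64 in Mature ones. In CPM all Middle-aged mice were above all Mature mice, as for 1.83% of all genes tested. The call was lost in 2 of 29 alternative fits, with logFC of 0.79 (edgeR FDR = 0.082) under 20% mitochondrial share and 0.80 (edgeR FDR = 0.099) at 20% or more.

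Of 8 genes of Nrf2 and its targets, only Gclm was called, as lower, against 5.54% of all genes called lower with age. Gclm, the modifier subunit of the enzyme that limits glutathione synthesis, had 12.8 to 16.5 CPM in Middle-aged mice (median 13.0), against 16.3 to 23.0 CPM in Mature mice (median 17.9), with a logFC of −0.42 (SE 0.10, edgeR FDR = 0.012). That call was lost in 1 of 29, with only mice under 20% mitochondrial share (logFC −0.39, edgeR FDR = 0.17, against −0.45 and FDR = 0.014 at 20% or more). Of 4 calcium release partners of selenoprotein N tested, 1 was called lower, against the same 5.54% of all genes. Casq1, the calcium store protein of fast fibres, had a logFC of −0.37 (SE 0.11, edgeR FDR = 0.042). That call was lost in 13 of 29 alternative fits, 8 of them among the 17 that left out 1 mouse. Its logFC was −0.51 (edgeR FDR = 0.083) under 20% mitochondrial share and −0.18 (edgeR FDR = 0.13) at 20% or more. None of these lists had a gene called between ALL and Middle-aged mice.

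The 10 genes did not vary as 1 block between mice of the same group. With each group centred on its own mean log2 CPM, Pearson's r over 17 mice ranged from −0.55 to 0.77 over the pairs of genes, as a description that shares library and depth. Gpx1 and Selenow were the closest pair (r = 0.77), followed by Selenop and Selenon (0.66), Selenow and Txnrd2 (0.66), Gpx4 and Txnrd2 (0.64) and Gpx4 and Selenom (0.63). The most opposed pairs were Msrb1 and Selenom (−0.55), Gpx4 and Txnrd1 (−0.52) and Msrb1 and Selenon (−0.52). Gpx3 had no r above 0.25 with any of the other 9. Gpx1 and Selenow also had the lowest correlations with the mitochondrial share, at −0.58 and −0.61.

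**Figure D5:**
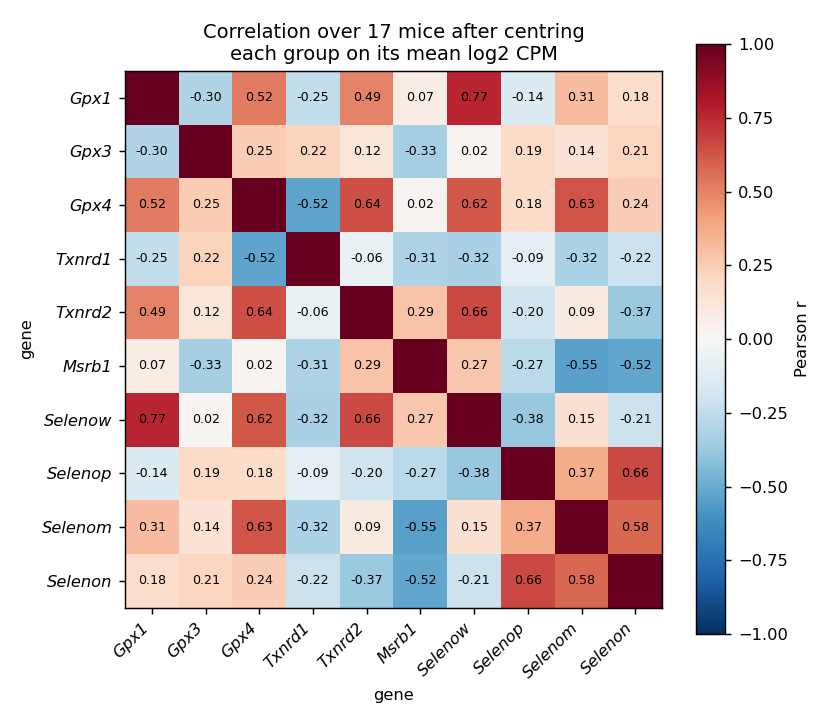
Pearson's r between each pair of the 10 genes over 17 mice, after each group was centred on its mean log2 CPM, on a colour scale from −1 (blue) to 1 (red). Gpx1, Gpx4, Txnrd2 and Selenow have r of 0.49 to 0.77 with each other, while Gpx3 stays between −0.33 and 0.25.

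Among 5494 other genes with a mean log2 CPM over 4, the patterns most like those of the 3 called genes over the same 17 mice were different for each. For Gpx3 they were Syvn1 (r = 0.86), Krba1 (0.79) and Tti1 (0.78). For Gpx4 they were Atp5e (0.88) and Ndufc1 (0.87), which encode subunits of the mitochondrial respiratory chain and ATP synthase, and Mrpl30 (0.87), of the mitochondrial ribosome. For Msrb1 they were Rnf14 (0.88), Nap1l4 (0.86) and Prkaca (0.86).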

How the data were processed

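The authors deposited 1 table with a whole-number read count per gene and library, not normalized, and TPM, which they scaled by gene length to a fixed library sum. Per the labels, the processing notes name FastQC 0.11.7, Trimmomatic 0.38, HISAT2 2.1.0, featureCounts and mm10, whereas the methods of the study name STAR and StringTie, and these differ. Libraries came from a stranded mRNA kit read as pairs of 75 bases. Of the columns with values per sample, 18 matched no labelled mouse and 17 held FPKM, and none of these was used. The counts went into edgeR 4.0.16 under R 4.3.3, with filterByExpr (29046 genes removed), TMM, and a quasi-likelihood F test in 1 fit of all 17 mice, two-sided, with Benjamini-Hochberg adjustment over all 16731 genes (FDR under 0.05). A prior count of 2 was used for log2 CPM. TPM served only to compare levels between genes and ranges between groups. Libraries held 49774656 to 72640511 counts, and the median standard error of logFC was 0.12 in the age comparison and 0.14 in the diet comparison. No library repeated another: over 42 pairs of mice of 1 group, chi-square divided by the number of genes was 19.6 to 231. It was low within the sets of 20% or more mitochondrial share, and as low in some pairs under 20%. Of the latter, ALL 3 and 4 had 25.7, Mature 4 and 7 had 33.8 and Mature 4 and 5 had 36.8. The other pairs under 20% had 40.5 to 97.8. Mature 1, 2 and 3 had 19.6 to 25.8 with each other and 56.1 to 129 with the other Mature mice. Middle-aged 1, 3 and 4 had 24.8 to 37.3 with each other and 76.8 to 231 with the other Middle-aged mice. What else sets these mice apart was not tested. Mice are separate animals by the labels.

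The 10 genes and the lists were chosen with earlier results of these data known. Named genes are the 10, every other selenoprotein gene as counts and values, the genes of 6 further lists past the threshold in Middle-aged against Mature or ALL against Middle-aged mice (up to 6 per list), and the 3 genes nearest in pattern to Gpx3, Gpx4 and Msrb1; Secisbp2, Eefsec, Sepsecs and Lrp1 were added for their roles after their values were seen. Alternatives were DESeq2 1.42.0, library size scaling, DESeq2 size factors in edgeR, all genes kept, each pair of groups fitted alone, a replicate block, the likelihood ratio test, the mitochondrial share as covariate, no mitochondrial genes and each mouse left out, with 3 added after the data were seen (mice with mitochondrial shares under and from 20%, and Gpx4 counts with those of its pseudogene copies). Ero1a, on the list of calcium release partners, was not analysed here. Genes were matched to GENCODE M21 by symbol and to RefSeq (GRCm38.p6) by gene ID, all 10 in both. The fit was tested on simulated data. Plots were made with matplotlib 3.10.9 (Python 3.11.15).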

Additional observations from a re-analysis of the deposited data

Results flagged for a closer look

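The Gpx4 level of Middle-aged 2 stood far above the rest of its group, at 289 CPM, against 239.8 to 249.7 CPM in the other 5 Middle-aged mice. It was the only such value among 30 checks of the 10 genes in the 3 groups, and chance marks about 1 in 20 such groups. Without Middle-aged 2 the logFC of Gpx4 in Middle-aged against Mature mice was 0.32 (SE 0.06, edgeR FDR = 0.0027).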

How the results depend on the processing

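Under all 29 alternatives Gpx3 and Gpx4 were higher in Middle-aged than in Mature mice, with logFC of 0.35 to 1.003 and 0.32 to 0.40, and each call was lost in 1 of 29, Gpx3 with only mice of 20% or more mitochondrial share and Gpx4 with only mice under 20%. The call of Msrb1 was lost in 15 of 29 (logFC −0.41 to −0.08, edgeR FDR up to 0.52), so the number of the 10 genes lower in Middle-aged mice was 0 with no filter on low counts, 0 with the replicate block and 0 with only mice of 20% or more, and 0 to 1 over the 17 fits that left out 1 mouse. No direction of a called gene reversed. The number higher in ALL than in Mature mice was 1 to 2 over the fits that left out 1 mouse. With only mice under 20%, 1 of the 10 was higher in Middle-aged than in Mature mice and 1 in ALL than in Mature mice, and with only mice of 20% or more 1 and 0 were. The cause of these changes was not tested, beyond the fewer mice in both sets.

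Over all genes, 1721 were called between Middle-aged and Mature mice, 456 with only mice under 20% and 1049 with only mice of 20% or more, and 1310 to 1816 with 1 mouse left out. Between ALL and Middle-aged mice 0 were called, 2 by DESeq2, 4 by the likelihood ratio test, 1 with only mice under 20%, 2 with only mice of 20% or more, and 0 to 1 with 1 mouse left out. Between ALL and Mature mice 1087 were called, 1696 by DESeq2, 615 with the replicate block, 401 with only mice under 20%, 45 with only mice of 20% or more, and 430 to 1096 with 1 mouse left out (430 without ALL 3, 650.0 without ALL 4 and 707 without Mature 6). Nothing in the labels pairs mice of the same number, and their correlation of deviations had a median of 0.063 over 14 pairs, against −0.0062 over 80 other pairs. Of these, 5 of the 14 pairs had r over 0.1, against 9 of the 80 others. A mouse correlated best with its own number in 11 of 28 checks. The rate without pairing was not computed, and whether numbers pair mice was not tested. Selenom and Selenon had the lowest counts of the genes described, with 167 to 472 and 180.0 to 361 per library. Their standard errors in the age comparison were 0.13 and 0.13, against 0.12 for Gpx3, which had more counts.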
